A study of Mus musculus with 10 samples.

Results

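The genes Arg1, Retnla, Chil3, Mgl2, Clec10a and Il4ra, which are widely used as markers of alternative activation in mouse macrophages, were examined in RNA sequencing of lamina propria macrophages from the small intestine. The 6 genes were taken by name from the 17279 genes of the deposited table, all 6 were listed there, and all 6 were among the 16949 genes that passed the filter on low counts.

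Alternative activation is the state that macrophages enter when interleukin (IL)-4 or IL-13 binds a receptor containing the IL-4 receptor α chain, encoded by Il4ra, after which Janus kinases phosphorylate the transcription factor STAT6. Arg1 (arginase 1, which hydrolyses arginine), Retnla (the secreted resistin-like molecule α, also called FIZZ1), Chil3 (the secreted chitinase-like protein Ym1) and the galactose-type lectins Mgl2 and Clec10a are induced through STAT6 in cultured macrophages. In the intestine, macrophages of the lamina propria are replenished from blood monocytes and clear debris and bacteria beneath the epithelium.

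All libraries came from C57BL6/J mice 24 h after either sham surgery (n = 5) or permanent middle cerebral artery occlusion (pMCAO, a model of ischaemic stroke, n = 5). The mucosal layer of the whole small intestine was peeled off, and cells positive for GFP under the control of the fractalkine receptor gene Cx3cr1 were sorted from it. The genotype label names the strain and no reporter allele, and neither sex nor age is given in the labels. The labels call the replicates biological, and the library names mark replicate 1 of each group as a pool. The comparison addresses whether these macrophages carry more or less of the alternative activation programme 1 day after stroke.

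Total counts ranged from 18894151 to 60665972 in the sham libraries and from 6430643 to 28672285 in the pMCAO libraries (exact permutation p on log2 totals = 0.0476, two-sided), so that low values are less precise after pMCAO. All 12 macrophage markers were present in every library, and their summed level was 5817 to 14962 CPM (read counts scaled to library size) in sham and 7603 to 14364 CPM in pMCAO libraries. RNA of other cells was present as well. The 7 mast cell and basophil markers summed to 2170 to 20659 CPM in sham and 475 to 6832 CPM in pMCAO libraries (exact permutation p = 0.0476, two-sided, adjusted over 10 lists 0.238), and the 8 B and plasma cell markers to 837 to 25205 and 1134 to 29396 CPM. The 5 eosinophil markers in the table were lower in level and differed in the other direction, with sums of 21.6 to 51.6 CPM in sham and 47.5 to 85.4 CPM in pMCAO libraries (exact permutation p = 0.0397, two-sided, adjusted 0.238), and Epx, a defining granule protein of eosinophils, is not listed. Of these, Ear2, a ribonuclease named after its values were seen, was at 24.9 ± 5.54 CPM in sham and 45.0 ± 10.6 CPM in pMCAO libraries (SD, n = 5 each), groups that did not overlap (0.985% of all tested genes did not), with a log2 fold change of 0.85 (SE 0.21, edgeR FDR 0.922). Xist, the RNA of the inactive X chromosome, stood at 2237 CPM of total counts in sham replicate 5 and at 4686 CPM in pMCAO replicate 4, against at most 4.88 CPM in the other 8 libraries. Leaving out both moved the log2 difference of the mast cell and basophil sum from −1.97 to −1.45 (exact permutation p = 0.171, two-sided). That of the eosinophil sum went from 0.75 to 0.85 (exact permutation p = 0.0857, two-sided). With fewer libraries these tests had fewer assignments. Ear2 had the highest mean of the 5 eosinophil markers (34.9 CPM). Siglecf was the 1 of them with a log2 fold change below 0 (−0.13, and 0.19 without these 2 libraries). Where a log2 fold change turned direction or moved by over 1.5 times without these 2 libraries, the value without them is given beside it.

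In GRCm38, the build named in the submitters' processing notes, Mgl2 (chr11:70130329-70137550, plus strand) and Clec10a (chr11:70156197-70170834, plus strand) are neighbours, separated by 18646 bases. Their coding sequences were identical at 90.36% of 913 aligned bases. The longest identical stretch, bases 550 to 732 of the Mgl2 coding sequence, is shown because a read within it does not by itself tell both lectins apart.

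Mgl2 and Clec10a: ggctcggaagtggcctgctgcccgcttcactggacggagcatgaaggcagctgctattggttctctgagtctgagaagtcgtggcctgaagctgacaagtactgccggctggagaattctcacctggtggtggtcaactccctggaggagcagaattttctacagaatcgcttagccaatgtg

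Windows of 100 bases, the length of 1 read, that lay wholly in sequence shared with the other lectin made up 5.924% of the Mgl2 windows and 4.075% of the Clec10a windows, so that the remaining positions distinguished the genes. Reads were paired, and these shares describe single reads, not pairs. Chil3 (chr3:106147554-106167564, minus strand) shared 5.417% of its windows with Chil4 and Gm6522, neither of which is among the listed genes. Arg1 (chr10:24915221-24927484, minus strand), Retnla (chr16:48842551-48844461, plus strand) and Il4ra (chr7:125552120-125579474, plus strand) had 0 shared windows. The exons of Il4ra overlapped the antisense gene Gm44876 by 571 bases, and whether counting used strand is not given in the sources used here.

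Promoter sequence from RefSeq (GRCm38.p6) was found for Retnla, Chil3, Mgl2 and Il4ra. The stretches before Retnla (chr16:48842359-48842550, plus strand) and Chil3 (chr3:106167565-106167814, minus strand) are shown because these genes are standard STAT6 targets and carried matches to STAT palindromes. Capitals mark, in Retnla, in order, a PU.1-type match, the STAT6-type palindrome (TTC and GAA with 4 bases between them) and a C/EBP-type match, and in Chil3 the palindrome TTCNNNGAA and a PU.1-type match.

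Retnla: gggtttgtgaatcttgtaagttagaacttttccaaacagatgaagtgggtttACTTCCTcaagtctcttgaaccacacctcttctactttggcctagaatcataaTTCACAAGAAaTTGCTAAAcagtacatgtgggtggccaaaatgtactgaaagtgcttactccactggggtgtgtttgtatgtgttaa
Chil3: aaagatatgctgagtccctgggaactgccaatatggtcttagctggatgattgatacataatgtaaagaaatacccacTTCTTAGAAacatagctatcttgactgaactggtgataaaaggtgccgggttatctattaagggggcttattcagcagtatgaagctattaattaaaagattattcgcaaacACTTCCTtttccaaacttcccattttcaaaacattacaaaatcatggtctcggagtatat

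Motifs were searched on both strands of the 250 bases before the RefSeq start of each gene. The STAT6-type palindrome, present in 5.85% of 32851 promoters, began 145 bases before the RefSeq start of Retnla. The C/EBP-type motif TTNNGCAA (9.56% of promoters) lay on the reverse strand 134 bases before the same start, next to that palindrome and not overlapping it, and the TATA box TATAAA (12.4% of promoters) 30 bases before it. The RefSeq start of Retnla lies 58 bases inside the gene as GENCODE annotates it, whereas the stretch shown ends before the GENCODE start, so the TATA box lies beyond its end. TTCNNNGAA (7.02% of promoters) began 172 bases before the start of Chil3. The PU.1-type motif AGGAAGT (7.69% of promoters) was found in Retnla, Chil3 and Mgl2, and none of these motifs was found in the Il4ra window. The RefSeq starts of Il4ra and Mgl2 lie 151 and 28 bases inside the genes as GENCODE annotates them, so their windows include bases of the annotated genes. A match describes the letters of the window and is not evidence of binding.

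Levels were counts scaled to CPM with TMM factors, and groups were compared with edgeR's quasi-likelihood test with Benjamini-Hochberg adjustment over all 16949 genes. No marker gene of alternative activation passed the test. At an FDR of 0.05, 0 of the 6 genes were called (0% of all tested genes). At an unadjusted p under 0.05, 0 of the 6 passed (4.71% of all tested genes), and in 0 of the 6 did the groups fail to overlap (0.985% of all tested genes, 0.448% higher and 0.537% lower after pMCAO). DESeq2, limma-voom and the other alternatives run also called 0 of the 6, and in none of them did a marker gene reach an unadjusted p under 0.05. The log2 fold changes, pMCAO against sham, ranged from −0.25 to 0.33 with 2 above and 4 below 0 and a median of −0.031. Over all tested genes the median was −0.0059, with 49.4% above 0. Without both libraries with Xist counts the median of the 6 genes was −0.16, with the same numbers above and below 0.

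**Figure D1:**
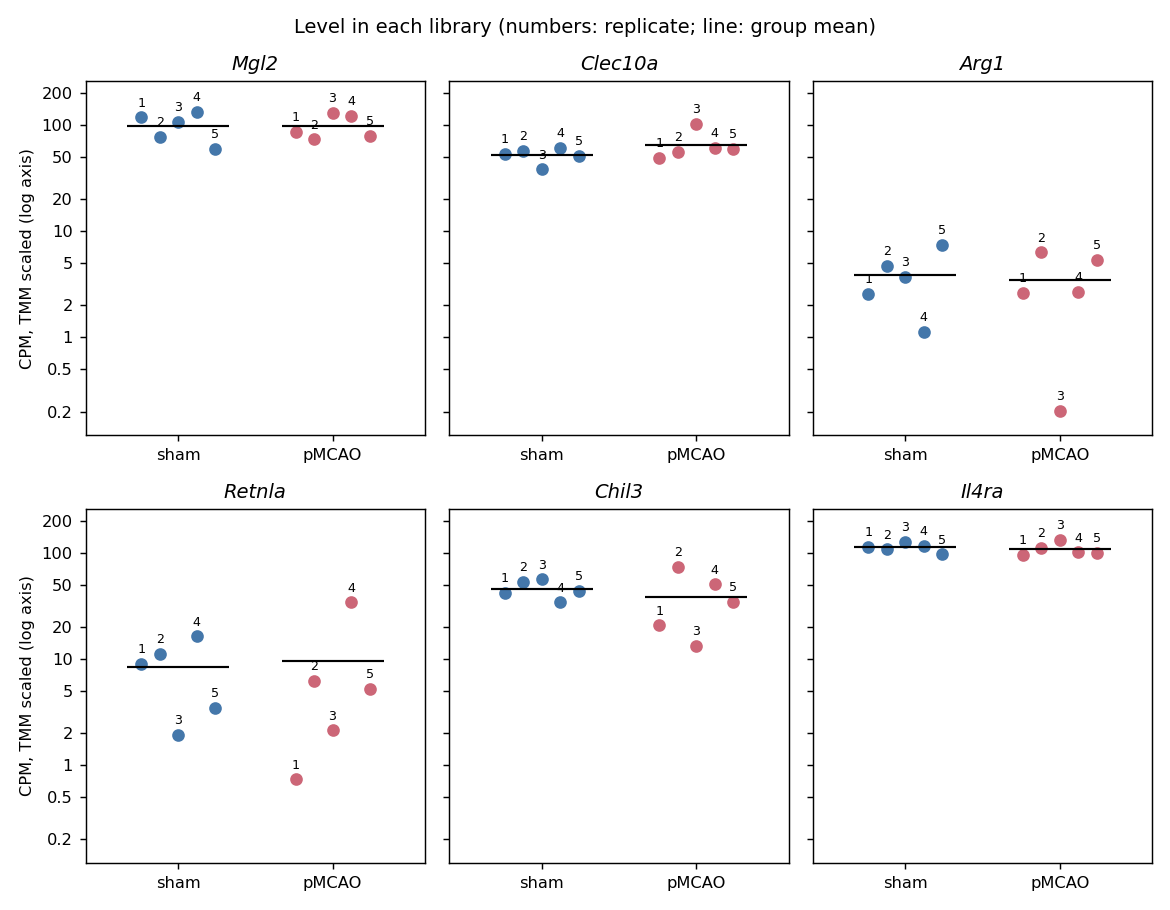
Level of each marker gene (TMM-scaled CPM, the same log axis in every panel) in 5 sham and 5 pMCAO libraries; points are libraries numbered by replicate and lines are group means. In every panel the points of both groups overlap, and Arg1 and Retnla spread far more between libraries than Il4ra.

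The receptor chain was the steadiest of these genes. Il4ra stood at 114, 108, 126, 116 and 96.6 CPM in sham replicates 1 to 5 and at 94.7, 111, 133, 101 and 99.7 CPM in pMCAO replicates 1 to 5. The highest library lay 1.40-fold above the lowest, and the group ranges almost coincided. The mean was 112 ± 10.9 CPM in sham and 108 ± 15.2 CPM in pMCAO (SD, n = 5 each). The log2 fold change was −0.057 (SE 0.14, 95% interval −0.37 to 0.25, edgeR FDR 0.973), an interval that runs from 0.774-fold to 1.19-fold. Without both libraries with Xist counts it was −0.086.

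Arg1 was the lowest of the 6 genes. It stood at 2.55, 4.75, 3.69, 1.13 and 7.39 CPM in the sham libraries and at 2.64, 6.31, 0.202, 2.71 and 5.37 CPM in the pMCAO libraries. Its lowest value, in pMCAO replicate 3, rested on 2 counts (exact Poisson 95% interval 0.0245 to 0.730 CPM, counting error only), and its highest, in sham replicate 5, on 571 counts. The means were 3.90 ± 2.37 and 3.44 ± 2.43 CPM (SD, n = 5 each), with 4 of 5 pMCAO libraries inside the sham range. With a log2 fold change of −0.17 (SE 0.70, 95% interval −1.70 to 1.36, edgeR FDR 0.984), neither a rise nor a fall of 2-fold was left out at this spread. Without pMCAO replicate 3 the log2 fold change was 0.12, without sham replicate 5 it was 0.18, and without both libraries with Xist counts it was 0.26.

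Retnla showed the widest range relative to its level. The sham libraries held 9.01, 11.1, 1.93, 16.3 and 3.44 CPM and the pMCAO libraries 0.733, 6.24, 2.12, 34.0 and 5.20 CPM. Both the lowest value, from 5 counts in pMCAO replicate 1, and the highest, from 415 counts in pMCAO replicate 4, belonged to the pMCAO group. These extremes differed 46.5-fold (exact 95% interval from the counts, 19.7 to 144). The means were 8.36 ± 5.84 CPM in sham and 9.67 ± 13.8 CPM in pMCAO libraries (SD, n = 5 each), with a log2 fold change of 0.22 (SE 0.85, 95% interval −1.63 to 2.07, edgeR FDR 0.982). The direction rested on pMCAO replicate 4, 1 of the 2 libraries with Xist counts. Without that library the log2 fold change was −1.20, without both libraries with Xist counts it was −1.40 (edgeR FDR 0.999, means 9.59 and 3.57 CPM), and without sham replicate 3 it was −0.037.

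Chil3 had a wider range in the pMCAO than in the sham libraries, a difference in spread that was not tested. Its sham values were 42.1, 53.2, 56.1, 34.1 and 44.0 CPM, and its pMCAO values were 20.7, 73.0, 13.3, 50.4 and 34.6 CPM. The lowest 2 and the single highest value were all from pMCAO libraries, so the sham range lay within the pMCAO range. The means were 45.9 ± 8.89 and 38.4 ± 24.0 CPM (SD, n = 5 each) and the log2 fold change was −0.25 (SE 0.38, 95% interval −1.07 to 0.57, edgeR FDR 0.952). The direction stayed below 0 in all 21 alternatives, from −0.63 to −0.046, and was −0.39 without both libraries with Xist counts. Chil3 is also expressed by monocytes and stood on the monocyte marker list, whose sum ranged from 690 to 2498 CPM in sham and from 654 to 1752 CPM in pMCAO libraries. Ccr2, the chemokine receptor of monocytes, had the highest mean of that list (831 CPM, log2 fold change 0.14), while 5 of its 7 genes, Chil3 included, were below 0. Plac8 (−1.08, SE 0.41) and Vcan (−1.47, SE 0.66), named after their values were seen, had an unadjusted p under 0.05 (2.45% of all tested genes did, on the lower side) and an edgeR FDR of 0.922. The part of monocytes in the Chil3 level was not tested. In these bulk samples, fewer cells of a type and less RNA per cell cannot be told apart.

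Mgl2 was the most abundant of the 6 genes per kilobase of exon. It stood at 118, 76.7, 107, 132 and 59.6 CPM in sham and at 86.6, 73.2, 130, 122 and 79.6 CPM in pMCAO libraries. The group means were nearly equal, at 98.6 ± 29.9 and 98.3 ± 25.9 CPM (SD, n = 5 each), and the pMCAO values lay within the sham range. The log2 fold change was −0.0049 (SE 0.24, 95% interval −0.53 to 0.52, edgeR FDR 0.999). It turned above 0, to between 0.024 and 0.11, when sham replicate 1, 3 or 4 or pMCAO replicate 1, 2 or 5 was left out, and was −0.23 without both libraries with Xist counts.

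Clec10a had the largest log2 fold change of the 6 genes and the lowest FDR. It stood at 53.2, 56.6, 38.2, 60.8 and 50.8 CPM in sham and at 48.8, 55.6, 102, 60.5 and 59.8 CPM in pMCAO libraries. The pMCAO mean was raised by replicate 3, and the other 4 pMCAO values lay within the sham range. The means were 51.9 ± 8.54 and 65.4 ± 21.0 CPM (SD, n = 5 each), with a log2 fold change of 0.33 (SE 0.21, 95% interval −0.13 to 0.80, edgeR FDR 0.922). Leaving out single libraries gave 0.11 to 0.42.

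Because Mgl2 and Clec10a are neighbours with shared sequence, their ratio was taken within each library. Mgl2 was higher than Clec10a per kilobase of exon in 10 of 10 libraries. The CPM ratio of Mgl2 to Clec10a was 2.22, 1.35, 2.78, 2.17 and 1.17 in sham and 1.77, 1.32, 1.27, 2.01 and 1.33 in pMCAO libraries. The mean log2 ratio differed by −0.28 between the groups (0.88 ± 0.53 in sham and 0.60 ± 0.30 in pMCAO, SD, n = 5 each, exact permutation p = 0.310, two-sided, adjusted over 3 ratios 0.464). Values in both groups ran from near 1 to above 2, so the balance of both lectins varied between libraries within each group.

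The ratio of Arg1 to Arg2, the mitochondrial arginase, ranged from 0.0836 to 1.31 in sham and from 0.0181 to 2.24 in pMCAO libraries. These ratios of CPM were not corrected for exon length, which cancels between the groups. They were above 1 in sham replicate 2 and pMCAO replicate 5 only. The mean log2 ratio differed by −0.12 (exact permutation p = 0.944, two-sided, adjusted 0.944), with SDs of 1.61 and 2.57 (n = 5 each), and it turned to 0.88 without pMCAO replicate 3, to 0.40 without sham replicate 2 and to 0.12 without sham replicate 5.

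The ratio of Il4ra to Il13ra1, the chain with which the IL-4 receptor α chain forms the receptor for IL-13, was 1.07, 0.923, 1.03, 2.01 and 1.30 in sham and 0.766, 0.795, 1.16, 0.566 and 0.828 in pMCAO libraries. It was below 1 in 4 of 5 pMCAO libraries and in 1 of 5 sham libraries. The mean log2 ratio was lower by −0.60 after pMCAO (0.28 ± 0.44 against −0.32 ± 0.37, SD, n = 5 each), with an exact permutation p of 0.0397 (two-sided) that did not pass adjustment over the 3 ratios (0.119). Leaving out pMCAO replicate 3, the 1 pMCAO library above 1, could only widen the difference. Without it the log2 difference was −0.73 and the adjusted exact permutation p was 0.0476. Il13ra1 stood at 106, 117, 123, 57.8 and 74.4 CPM in sham and at 124, 140, 114, 178 and 120 CPM in pMCAO libraries (log2 fold change 0.50, SE 0.22, edgeR FDR 0.922). Its lowest sham values and its highest pMCAO value included both libraries with Xist counts, and without these the log2 fold change was 0.30 (SE 0.23) and the log2 difference of the ratio was −0.45 (exact permutation p = 0.143, two-sided, adjusted 0.214).

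**Figure D2:**
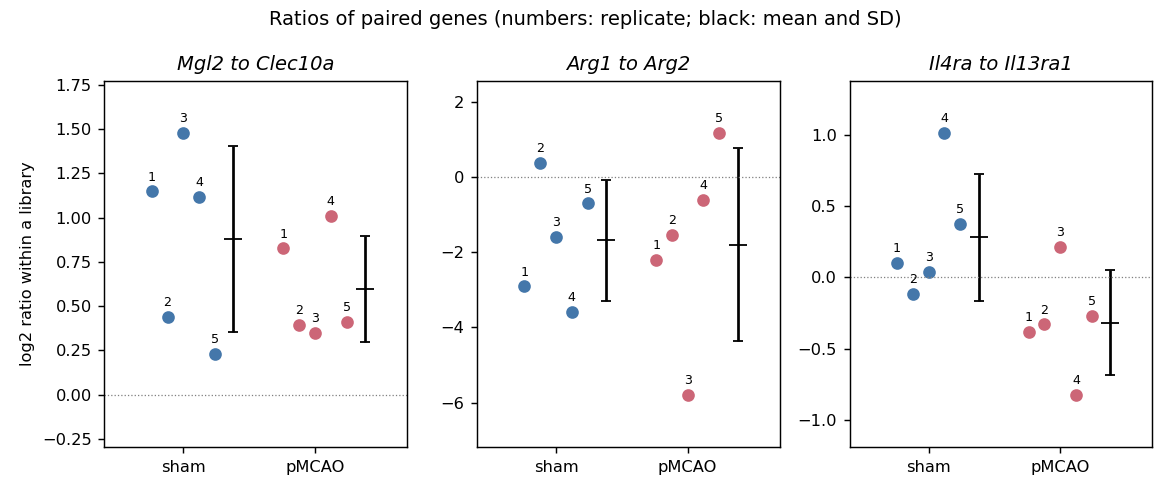
Log2 ratio of the CPM of paired genes within each library (y axis, no unit) for sham and pMCAO; points are libraries numbered by replicate, and black marks are the group mean with its SD (n = 5). The groups overlap for Mgl2 to Clec10a and for Arg1 to Arg2, and for Il4ra to Il13ra1 the 5 pMCAO values sit between −0.82 and 0.22 against −0.12 to 1.01 in sham.

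Levels of the 6 genes were compared with each other per kilobase of exon. Mgl2 came first at 47.0 ± 12.6 CPM per kilobase (SD over 10 libraries), followed by Chil3 (25.8 ± 10.7), Clec10a (20.2 ± 5.75), Il4ra (18.3 ± 2.11), Retnla (15.0 ± 16.7) and Arg1 (1.65 ± 1.02). Mgl2 exceeded Chil3 in 9 of 10 libraries and Retnla exceeded Arg1 in 10 of 10. Chil3, Clec10a, Il4ra and Retnla did not separate beyond their spread, since Chil3 exceeded Clec10a in 7, Clec10a exceeded Il4ra in 8 and Il4ra exceeded Retnla in 7 of 10 libraries.

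Spread between libraries, taken as the SD of log2 CPM within groups, differed widely among the 6 genes. It was 1.67 for Retnla, 1.46 for Arg1, 0.72 for Chil3, 0.43 for Mgl2, 0.34 for Clec10a and 0.17 for Il4ra. Over all genes the spread was larger at lower levels, so each gene was set against tested genes whose mean lay within 0.5 log2 units of its own. Among such genes, a smaller SD was found in 94.1% for Retnla, 92.9% for Chil3, 83.2% for Arg1, 80.0% for Mgl2, 57.4% for Clec10a and 9.12% for Il4ra. Retnla and Chil3 were thus among the more variable genes of their level by this measure, and Il4ra among the steadier ones. The measure pools both groups, and for Chil3 the spread lay mostly in the pMCAO libraries. Its log2 CPM ran from 5.09 to 5.81 in sham and from 3.75 to 6.19 in pMCAO libraries.

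**Figure D3:**
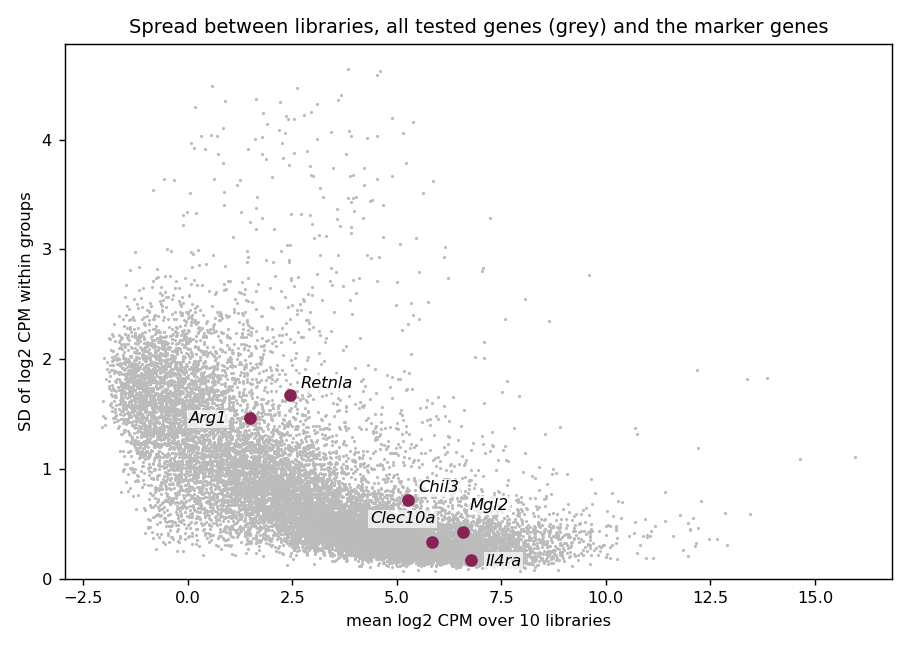
SD of log2 CPM within groups (y axis) against mean log2 CPM over 10 libraries (x axis) for all 16949 tested genes in grey, with the 6 marker genes named. Retnla (1.67), Arg1 (1.46) and Chil3 (0.72) lie in the upper part of the cloud at their level and Il4ra (0.17) at its lower edge.

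The 6 genes did not move as a block from library to library. In pMCAO replicate 1, the pooled library with the fewest counts, 0 of the 6 were above their median over 10 libraries, and in the other libraries 2 to 4 were. Of the 15 pairs among the 6 genes, chosen for examination after their values were seen, the relation between Arg1 and Mgl2 was the closest by rank correlation. Libraries with more Arg1 had less Mgl2, with Pearson's r = −0.772 (permutation p = 0.00339, adjusted over 15 pairs 0.0508) and Spearman's rho = −0.915 (permutation p = 0.00056, adjusted 0.0084) over 10 libraries. The 2 libraries with the most extreme Arg1 values, sham replicate 4 and pMCAO replicate 3, did not carry it (r = −0.872 without them), and over 8 libraries r was −0.797 without those with Xist counts and −0.800 without the pools. Arg1 and Chil3 had r = 0.779 (permutation p = 0.0135, adjusted 0.101), which fell to 0.409 without the same 2 libraries. Mgl2 and Clec10a had r = 0.363 (permutation p = 0.327, adjusted 0.534) in spite of their shared sequence. After subtraction of the group means, a step added after these values were seen, Arg1 and Mgl2 had r = −0.783 (permutation within groups, p = 0.00082, adjusted 0.0123). The same step gave r = 0.774 for Arg1 and Chil3 (permutation p = 0.0211, adjusted 0.158) and r = 0.395 for Mgl2 and Clec10a (permutation p = 0.273, adjusted 0.455). All of these permutations treated libraries as exchangeable without regard to replicate number. If same-numbered sham and pMCAO libraries are alike, the p-values are too small.

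The marker genes were then set against the summed CPM of each of 10 cell type marker lists, which made 60 relations over 10 libraries, and these were also chosen after values were seen. Their permutations disregarded replicate number as well, so the same limit holds for their p-values. Mgl2 rose with the macrophage markers, with r = 0.933 (permutation p = 0.00011, adjusted 0.0066), rho = 0.903 (permutation p = 0.00092, adjusted 0.0212) and r = 0.920 without sham replicate 5 and pMCAO replicate 5. Arg1 ran the other way against the same list, with r = −0.754 (permutation p = 0.0117, adjusted 0.095) and rho = −0.867 (permutation p = 0.00243, adjusted 0.0364), and r = −0.755 without these libraries. In the macrophage list H2-Ab1 had the highest mean (4317 CPM). In the T cell and innate lymphoid cell list Cd4 had it (141 CPM), followed by Il7r (38.5 CPM). Cd4 stood at 150, 143, 153, 179 and 113 CPM in sham and at 93.2, 136, 178, 156 and 105 CPM in pMCAO libraries. It was thus highest in sham replicate 4 and pMCAO replicate 3, the libraries with the least Arg1, although the sum of its list rose with Arg1. With the T cell and innate lymphoid cell markers Arg1 had r = 0.755 (permutation p = 0.0137, adjusted 0.095) and rho = 0.891 (permutation p = 0.00106, adjusted 0.0212), and r = 0.784 without sham replicate 5 and pMCAO replicate 5. Its r was similar with the monocyte (0.741), mast cell and basophil (0.741) and B and plasma cell lists (0.697, permutation, adjusted p = 0.095 each). None of these passed adjustment by rank. Without the 2 most extreme libraries of each list these r were 0.745, 0.267 and 0.379. Arg1 also ran against the neutrophil and granulocyte precursor list (r = −0.845, permutation p = 0.00065, adjusted 0.0195, and rho = −0.903, permutation p = 0.00089, adjusted 0.0212). Without pMCAO replicate 3 and sham replicate 5 that r was −0.708. In this list 6 of 11 genes, S100a9 and Elane among them, are not listed and Csf3r held most of the counts. After subtraction of the group means r was 0.934 for Mgl2 and the macrophage markers (permutation within groups, adjusted p = 0.0234). For Arg1 it was −0.769 with the macrophage (permutation, adjusted p = 0.0368), 0.745 with the T cell and innate lymphoid cell (adjusted p = 0.0908) and −0.865 with the neutrophil and granulocyte precursor list (adjusted p = 0.0234). It was 0.821 with the mast cell and basophil and 0.743 with the monocyte list (permutation, adjusted p = 0.0859 each), and 0.705 with the B and plasma cell list (adjusted p = 0.111). All of these values share the scaling of each library, so a larger share of one kind of RNA lowers the rest, and the part of cell composition in the levels of Arg1 and Mgl2 was not tested.

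**Figure D4:**
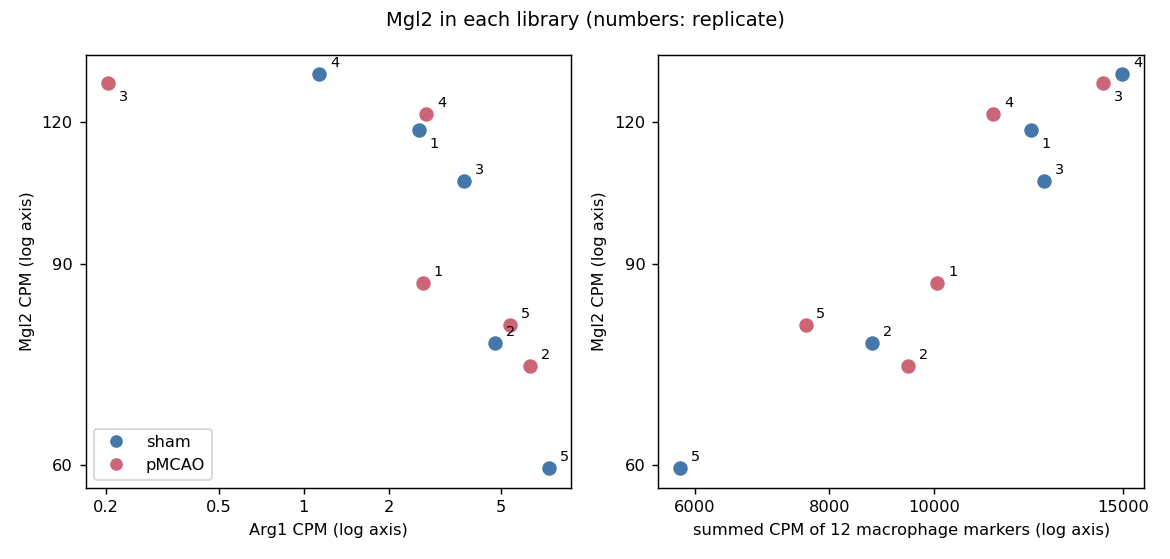
Mgl2 CPM (y axes) against Arg1 CPM (left) and against the summed CPM of 12 macrophage markers (right) in 10 libraries, on log axes; colours mark sham and pMCAO and numbers the replicate. Mgl2 falls as Arg1 rises (rho = −0.915) and rises with the macrophage markers (rho = 0.903), with libraries of both groups along the whole range.

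For each gene, the 3 genes of most like pattern were sought among 13870 genes with a mean of at least 50 counts, by Pearson's r over 10 libraries after subtraction of the group means, as a description without a test. For Arg1 these were Bzw2, Atp2b4 and Il2rb, a receptor chain for IL-2 and IL-15 (r = 0.984, 0.983 and 0.983). For Mgl2 they were Arhgap19, Tmprss5 and Ctsb, the lysosomal protease cathepsin B (0.978, 0.967 and 0.964). For Il4ra they were Ctsz, another cathepsin, Dopey2 and Coro1b (0.969, 0.958 and 0.952). The values were lower for Chil3 (Wdr34, Dcaf5 and Samd8, 0.946 to 0.934), Clec10a (Slc19a1, H2-K2 and Dnajb1, 0.941 to 0.926) and Retnla (Fam43a, Crebrf and Cks2, 0.924 to 0.884).

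The rest of the pathway was examined by lists of ligands, receptor subunits, signal transducers, inhibitors, transcription factors, other target genes, arginine and polyamine metabolism and the families of the marker genes. Of 68 tested genes on these lists beside the 6 markers, 0 were called with edgeR, 0 had groups that did not overlap, and at an unadjusted p under 0.05 there were 2 higher (2.26% of all tested genes were) and 1 lower (2.45%). Il4, the ligand, was at 23.1, 22.9, 9.62, 4.03 and 36.4 CPM in sham and at 7.33, 8.53, 9.70, 4.18 and 16.2 CPM in pMCAO libraries (log2 fold change −1.06, SE 0.52, edgeR FDR 0.922), and without both libraries with Xist counts, 1 of them the highest, the log2 fold change was −0.52. Of the mast cell and basophil markers, Mcpt1 was at the highest mean level and had a log2 fold change of −1.86 (edgeR FDR 0.922, and −1.18 without both libraries with Xist counts). Sham replicate 5 was the highest library for both Il4 and the sum of that list, and the part of mast cells and basophils in the Il4 level was not tested. Il33 and Tslp, alarmins that elicit IL-4 and IL-13 from other cells, had mean levels of 0.947 and 2.74 CPM and log2 fold changes of −1.13 and −0.27 (−1.46 for Tslp without both libraries with Xist counts), and Il13 and Il25 are not among the listed genes.

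**Figure D5:**
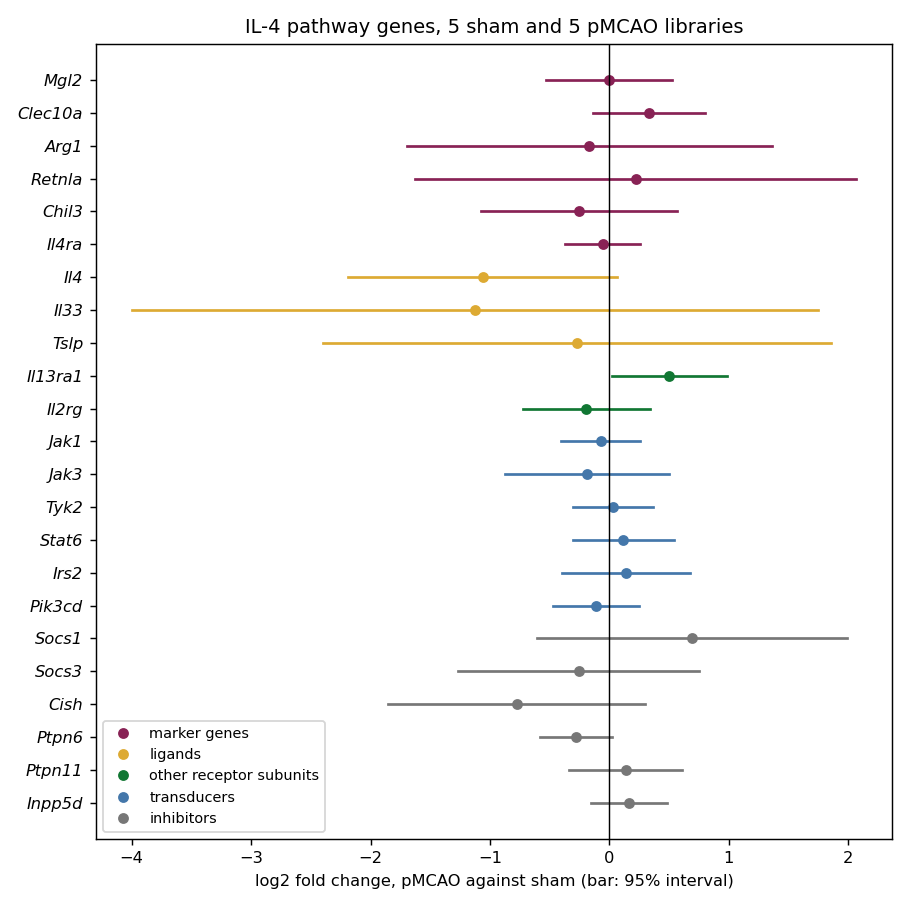
Log2 fold change of pMCAO against sham (x axis) with its 95% interval from edgeR for the 6 marker genes and for IL-4 pathway genes, coloured by role. The intervals of all genes shown except Il13ra1 include 0, and those of Il4ra, Jak1, Tyk2 and Pik3cd are among the narrowest.

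Beside Il4ra and Il13ra1, the receptor subunit Il2rg, the common γ chain, ranged from 35.8 to 53.7 CPM in sham and from 20.4 to 51.7 CPM in pMCAO libraries (log2 fold change −0.20, SE 0.24, and −0.045 without both libraries with Xist counts). The 6 signal transducers stayed between −0.19 and 0.14 in log2 fold change. Stat6 itself was at 92.5 to 116 CPM in sham and 89.9 to 177 CPM in pMCAO libraries (log2 fold change 0.12, SE 0.20, edgeR FDR 0.955), and its highest library, pMCAO replicate 3, was also the highest for Il4ra and Clec10a and the lowest for Arg1 and Chil3. Jak1 (319 CPM) and Pik3cd (155 CPM) had higher means than Stat6 (109 CPM), and Jak3 (−0.19) and Irs2 (0.14) had the largest log2 fold changes of this list, that of Irs2 being 0.23 without both libraries with Xist counts. Among the 6 inhibitors, with 3 above and 3 below 0, Cish (−0.78), Socs1 (0.69) and the phosphatase Ptpn6 (−0.28) had the largest log2 fold changes, Inpp5d (195 CPM), Socs3 (155 CPM) and Ptpn6 (151 CPM) the highest means, and none passed the test. Cish had a log2 fold change of −0.24 once both libraries with Xist counts were left out. The 10 transcription factors had 5 above and 5 below 0, from −0.80 for Cebpb and −0.48 for Egr2 to 0.25 for Klf4, which with Irf4 and Myc had the highest means (174, 117 and 75.0 CPM). Without the libraries with Xist counts Klf4 was at 0.095 and Irf4 had a log2 fold change of 0.29 in place of 0.18.

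The list of IL-4 target genes held 29 tested genes, 5 of the 6 markers among them, with 15 above and 14 below 0 and a median log2 fold change of 0.063. Without both libraries with Xist counts 12 were above and 17 below 0, with a median of −0.13. Mrc1, the mannose receptor CD206, was at 425 to 1793 CPM in sham and 691 to 2862 CPM in pMCAO libraries (log2 fold change 0.39, SE 0.41), with its lowest sham and highest pMCAO value in the libraries with Xist counts. Without these its log2 fold change was −0.21 (SE 0.29). It had the highest mean of the list, at 1289 CPM, followed by Stab1 (518 CPM) and Ptgs1 (405 CPM). Ch25h, which makes 25-hydroxycholesterol, had a log2 fold change of 2.19 (SE 0.98, edgeR FDR 0.922) that came from 6.47 and 8.12 CPM in pMCAO replicates 3 and 4, while the other 8 libraries were at 0.103 to 1.57 CPM. F13a1, a coagulation factor subunit, was likewise at 169 and 478 CPM in these 2 libraries against at most 109 CPM elsewhere (log2 fold change 1.28, SE 0.66). Without both libraries with Xist counts, pMCAO replicate 4 among them, the log2 fold changes were 1.23 for Ch25h and 0.13 for F13a1. Cd209e, a C-type lectin, was lower, with 2.61 to 8.43 CPM in sham and 1.41 to 5.67 CPM in pMCAO libraries (log2 fold change −1.12, SE 0.46, edgeR FDR 0.922). Ch25h and Cd209e, of opposite sign, were the target genes with an unadjusted p under 0.05.

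Genes of arginine and polyamine metabolism, the pathway fed by Arg1, lay below 0 in a number that rested on the libraries with Xist counts. Of 14 tested genes, 13 had a log2 fold change below 0 and the median was −0.20, where 49.4% of all tested genes were above 0, and 0 had an unadjusted p under 0.05. Without these libraries 9 of the 14 were below 0 and the median was −0.031, with 48.7% of all tested genes above 0. The largest were Ass1, which makes argininosuccinate (−1.13), Oat (−0.37) and Srm (−0.34), and the highest means were those of Sat1 (599 CPM), Oat (100.2 CPM) and Azin1 (94.2 CPM). Without the libraries with Xist counts the log2 fold change was −0.63 for Ass1 and 0.073 for Srm. Arg2 was at 3.62 to 19.7 CPM in sham and 2.36 to 18.6 CPM in pMCAO libraries (log2 fold change −0.21, SE 0.55, and −0.014 without the same libraries). Nos2, the inducible nitric oxide synthase that competes for arginine in classically activated macrophages, was too low to test, with 0 counts in 3 libraries and at most 1.24 CPM.

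Relatives of the marker genes stood on either side of them. Per kilobase, Arg2 was at 7.96 CPM against 1.65 for Arg1 and was the higher in 9 of 10 libraries. Retnlg was at 6.11 CPM per kilobase against 15.0 for Retnla, but was the higher in 4 of 10 libraries. In 10 of 10 libraries, Chil1 and Chil5 were below Chil3 (means of 0.346 and 2.42 against 25.8 CPM per kilobase) and Asgr2 was below Clec10a (5.86 against 20.2). Their log2 fold changes were −0.0094 for Retnlg, 0.80 for Chil1, 0.85 for Chil5 and 0.0063 for Asgr2, and 0 of these were called. Without the libraries with Xist counts Retnlg was at 0.28 and Asgr2 at −0.28. The coding sequence of Retnla was identical to that of Retnlg at 84.18% and that of Chil3 to Chil4 at 95.32% of aligned bases.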

How the data were processed

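RNA from sorted macrophages of 5 sham and 5 pMCAO samples was sequenced with paired reads of 100 bases after depletion of ribosomal RNA. The submitters' processing notes name STAR, featureCounts and limma without versions. The authors deposited raw counts per gene, their own CPM values scaled to total counts, which were used only to check the table, and a fold change, p-value and FDR for each gene, which were not used. Those counts were passed through filterByExpr, scaled with TMM factors and tested in edgeR 4.0.16 (R 4.3.3) without covariates. Correlations and distances between libraries used log2 CPM with a prior count of 2. The p-values for correlations came from permutations that disregarded replicate number. Exact tests over all 10 libraries enumerated 252 assignments, with a smallest p of 0.0079. Those with libraries left out had fewer assignments and so a larger smallest p. No library repeated another, since a chi-square test over 13874 genes gave 44.7 or more for each degree of freedom in every pair.

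Gene positions, exon lengths and coding sequences were from GENCODE M21. The marker genes, gene lists and tests were chosen with earlier results of these data known. Named were the 6 markers, the 3 genes of each list with the largest log2 fold changes and the 3 with the highest levels, receptor subunits, Stat6 and the most similar genes. Relatives of the markers and Arg2 are named for their sequence or reaction. Alternatives were DESeq2 1.42.0, limma-voom (limma 3.58.1) with and without sample quality weights, 2 normalizations, 2 filters, the replicate block, removal of immunoglobulin genes, and leaving out pools, libraries with Xist counts or each library. Depth limits precision as given above, and p-values measure the spread between these samples.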

Additional observations from a re-analysis of the deposited data

Results flagged for a closer look

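Among 20 sets of 5 libraries (the 6 marker genes, the 3 ratios and the total counts, in each group), 1 held a library far from the others, where chance gives about 1 in 20. This was Arg1 in pMCAO replicate 3, whose log2 CPM of −1.86 lay apart from the 1.44 to 2.67 of the other pMCAO libraries, with a gap of 0.728 of the group's range against a limit of 0.71. The value rests on 2 counts in a library of 11299863 counts. Clec10a in the same library was nearly as far above its group (6.67 against 5.61 to 5.92 log2 CPM), with a gap of 0.708 that did not pass the limit. The cause was not tested.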

How the results depend on the processing

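With edgeR 0 genes were called under every alternative, against 3 with DESeq2 (none of them a marker of alternative activation), where 1011 genes had an unadjusted p under 0.05, against 799 in the reported fit, 882 with limma-voom and 1888 when its sample weights were added. Of 394 values recomputed, 366 kept their direction and side of the threshold or, for counts and list medians, moved by less than the limits set for them, and 24 turned direction, none of them past a threshold. The log2 fold change of Mgl2, reported as −0.0049, was 0.020 with DESeq2 and with its size factors, 0.0083 with limma-voom, 0.023 with upper-quartile scaling, 0.0065 when 5 or more libraries had to exceed 1 CPM and 0.11 without both pools. Retnla was at −0.36 with sample quality weights and at −1.40 without the libraries with Xist counts, where Arg1 was at 0.26. Leaving out each library gave −0.51 to 0.18 for Arg1, −1.20 to 0.59 for Retnla, −0.15 to 0.11 for Mgl2, −0.86 to 0.88 for the log2 ratio of Arg1 to Arg2, and −0.73 to −0.42 for that of Il4ra to Il13ra1. The last passed adjustment without pMCAO replicate 3, the 1 pMCAO library with that ratio above 1, whose removal could only widen the difference. Of 7 correlations recomputed with the group means subtracted, a choice made after seeing the data, those of Arg1 with Mgl2 (r = −0.783) and with the macrophage markers (r = −0.769) passed adjustment by Pearson's r where they had not before. By rank correlation both had already passed. The cause of these changes was not tested.

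The values did not settle whether replicate numbers pair the libraries. After subtraction of the group means, the correlations of same-numbered libraries were 0.046, 0.341, −0.0055, 0.232 and 0.372, with a mean of 0.197. Libraries of 2 numbers correlated best with their own, and both pools carry number 1. With the replicate number as a block in edgeR, 0 genes were called (smallest FDR 0.173, against 0.922 without the block). An unadjusted p under 0.05 was found for 1303 genes, against 799 without the block. With it, Mgl2 was at 0.016 and Retnla at −0.32. For the ratios, the exact sign-flip test over pairs gave p = 0.125 for Il4ra to Il13ra1, with a smallest possible p of 0.0625.

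Depth limits the lowest values of Arg1 and Retnla most, whose lowest libraries held 2 and 5 counts. A pMCAO library of the lowest depth would put 3 counts at 0.44 CPM. For Arg1 and Retnla the 95% intervals span changes of 2-fold in both directions. These intervals also hold the spread between libraries beyond counting error. Retnla, for example, ran from 1.93 to 16.3 CPM in the sham libraries, where it had 67 to 344 counts.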
